A study of Mus musculus with 28 samples.

Results

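The opioid and tachykinin genes described here are 4 peptide precursors, Penk, Pdyn, Pnoc and Tac1, and 4 opioid receptors, Oprm1, Oprd1, Oprk1 and Oprl1. They were chosen by gene symbol from the array's platform annotation and make up 8 of the 19946 genes measured in mouse striatum. Each of the 8 symbols had 1 transcript cluster (a group of probes that stands for a gene) annotated with that symbol alone. No choice between such clusters was needed, and clusters annotated with several symbols were not used. None of the 8 clusters was among the probesets with masked probes, and by RefSeq (GRCm38.p6) the members lie on chromosomes 4 (Penk and Oprd1), 2 (Pdyn and Oprl1), 14 (Pnoc), 6 (Tac1), 10 (Oprm1) and 1 (Oprk1).

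RNA from drug-naive mice was measured on 28 Affymetrix Mouse Gene 1.0 ST arrays, each from a different mouse whose left and right striatal punches had been pooled. Carriers of the B6.A/J congenic segment, DNA of strain A/J from 84 to 96 Mb on a C57BL/6J (B6) background, were compared with B6 wildtype mice. The segment is on chromosome 11 by knowledge of the study, since the design text names no chromosome, and none of the 8 genes lies on that chromosome. The first batch held 6 B6 littermates and 6 mice heterozygous for the segment, aged 41 to 68 days. In the second, the 8 B6 controls (61 to 63 days old) were not littermates of the 8 mice homozygous for the segment (52 to 57 days old), so genotype cannot be told apart from age and breeding there. Females and males were equal in number in every group, 3 of each in both groups of batch 1 and 4 of each in both groups of batch 2. A congenic segment carries every A/J variant inside it, and a difference between the groups is therefore not tied to any 1 gene.

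The values are log2 expression after RMA and after adjustment of the batches to each other with ComBat by the authors, so levels were compared within a batch. Marker lists of striatal spiny neurons were measured on every array, with a mean of 10.66 to 11.29 log2 over 14 genes shared by both spiny neuron classes. Liver transcripts varied in batch 2, where the mean of 23 hepatocyte genes ran from 6.77 to 11.09, against 8.07 to 8.23 in batch 1. The array labelled B6 control 1 stood apart, with the highest hepatocyte mean (11.09) and the lowest spiny neuron mean (10.66, against at least 10.93 on the other 15 arrays of its batch). Results that rest on it are therefore given with and without it. In pooled tissue, fewer cells of a type and less RNA per cell cannot be told apart.

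Opioid peptides are cut from larger precursors and act on inhibitory G protein-coupled receptors. Proenkephalin (Penk) yields the enkephalins, which act on the mu receptor (Oprm1) and the delta receptor (Oprd1). Prodynorphin (Pdyn) yields the dynorphins, the main ligands of the kappa receptor (Oprk1), and prepronociceptin (Pnoc) yields nociceptin, the ligand of the nociceptin receptor (Oprl1). Tac1 encodes substance P and neurokinin A, tachykinins that act on neurokinin receptors. In the striatum, Penk is known as a marker of the indirect-pathway spiny neurons that carry the D2 dopamine receptor, and Pdyn and Tac1 as markers of the direct-pathway spiny neurons that carry the D1 receptor.

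Promoter windows are shown for Tac1 and Pdyn, the peptide precursors of the direct-pathway spiny neurons, and which genes they moved with is described further on. Each window runs from 250 bases before to 50 bases after the start of transcription in RefSeq (GRCm38.p6), where 5 of the 8 members matched with 10 windows in all. The Tac1 window lies at chr6:7554811-7555110 on the plus strand and the Pdyn window printed, the first of 2 for that gene, at chr2:129699889-129700188 on the minus strand. Capitals mark matches on either strand to a CRE palindrome (TGACGTCA), a CRE-like site (TGCGTCA), a CRE half-site (CGTCA), an AP-1 site (TGANTCA) or an E-box (CACGTG), the letters bound by CREB, Fos and Jun, and basic helix-loop-helix factors.
Tac1 promoter: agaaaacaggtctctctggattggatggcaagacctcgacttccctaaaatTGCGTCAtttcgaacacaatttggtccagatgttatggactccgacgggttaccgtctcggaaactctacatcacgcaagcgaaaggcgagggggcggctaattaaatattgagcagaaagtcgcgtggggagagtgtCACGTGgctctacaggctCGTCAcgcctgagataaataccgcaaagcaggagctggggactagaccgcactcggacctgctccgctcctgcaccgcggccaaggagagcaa
Pdyn promoter: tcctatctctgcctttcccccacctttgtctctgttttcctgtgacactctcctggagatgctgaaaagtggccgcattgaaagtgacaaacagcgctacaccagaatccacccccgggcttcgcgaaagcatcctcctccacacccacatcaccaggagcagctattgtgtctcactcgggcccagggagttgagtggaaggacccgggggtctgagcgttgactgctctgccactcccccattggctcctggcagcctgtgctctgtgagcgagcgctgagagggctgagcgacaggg
The Tac1 window held the CRE-like site at position -199 from the start, overlapped by a half-site at -197, a separate half-site at -43 and an E-box at -61. Neither Pdyn window held any of the 5 motifs, the second being at chr2:129698609-129698908, and neither did the 3 windows of Oprm1 and the 3 of Oprl1. The Oprd1 window held an E-box at -86. Among 32851 promoter windows of the same length, 1.79% held the palindrome, 2.12% the CRE-like site, 20.8% the half-site, 7.81% the AP-1 site and 7.15% the E-box. These matches are letters in a window, and binding was not measured.

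Penk, the enkephalin precursor, had group medians between 13.47 and 13.55. In B6 littermates the log2 values ran from 13.42 to 13.61 with a median of 13.48, and in heterozygous mice from 13.43 to 13.62 with a median of 13.47. In B6 controls they ran from 13.20 to 13.63 with a median of 13.55, and in homozygous mice from 13.30 to 13.60 with a median of 13.48. The lowest value, 13.20, was that of B6 control 1, and the carrier and B6 ranges overlapped in both batches. Heterozygous mice differed from littermates by -0.0032 log2 (SE 0.059, n = 6 and 6) and homozygous mice from B6 controls by -0.035 (SE 0.052, n = 8 and 8), neither of which passed limma's test (adjusted p = 0.999899 and 0.915). Over the 14 carriers and 14 B6 mice the difference was -0.022, a fold of 0.985 with a 95% interval of 0.933 to 1.04 (adjusted p = 0.986 in limma). When B6 control 1 was left out, the difference was -0.075 (SE 0.045) in homozygous mice and -0.043 (SE 0.034) over all carriers, which did not pass either (limma adjusted p = 0.834 and 0.851).

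Tac1, the substance P precursor, had lower means in carriers in both batches without passing the test. Littermates ran from 11.38 to 11.60 (median 11.56) and heterozygous mice from 11.22 to 11.58 (median 11.40). B6 controls ran from 10.88 to 11.66 (median 11.60) and homozygous mice from 11.09 to 11.69 (median 11.44). The ranges overlapped in both batches, and 10.88 was again B6 control 1, with every other control at 11.48 or above. Of the heterozygous mice 5 of 6 lay below the littermates' mean, and of all carriers 10 of 14 lay below the mean of the B6 mice in the same batch. The difference was -0.11 log2 (SE 0.098) in heterozygous mice, -0.068 (SE 0.085) in homozygous mice and -0.085 (SE 0.063, fold 0.943, interval 0.862 to 1.03) over all carriers, with limma adjusted p = 0.999899, 0.905 and 0.967. With B6 control 1 left out, the difference was -0.15 (SE 0.065) in homozygous mice and -0.13 (SE 0.047) over all carriers, with unadjusted p = 0.0274 and 0.00954. Neither passed after adjustment over all genes in limma (adjusted p = 0.756 and 0.691), so B6 control 1 moved both values by over 1.5 times but decided no call. Through the shared spread it also widened the heterozygous SE. Without it the heterozygous difference stayed -0.11 with an SE of 0.072 (limma unadjusted p = 0.143, adjusted p = 0.914).

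Pdyn, the dynorphin precursor, varied widely among the mice of each group. Its values ran from 7.99 to 8.42 in littermates, from 7.97 to 8.29 in heterozygous mice, from 7.86 to 8.42 in B6 controls and from 7.92 to 8.44 in homozygous mice. The medians, in the same order, were 8.16, 8.16, 8.13 and 8.19, and the ranges overlapped in both batches. The difference was -0.041 (SE 0.093) in heterozygous mice, -0.029 (SE 0.080) in homozygous mice and -0.034 (SE 0.060, fold 0.977, interval 0.897 to 1.06) over all carriers, and none passed limma's test (adjusted p = 0.999899, 0.957 and 0.986). Without B6 control 1, which held the lowest Pdyn value (7.86), the difference was -0.075 (SE 0.077) in homozygous mice and -0.060 (SE 0.056) over all carriers, which did not pass either (limma adjusted p = 0.901 and 0.887).

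Pnoc, the nociceptin precursor, ran from 7.43 to 7.54 in littermates (median 7.51), from 7.45 to 7.70 in heterozygous mice (median 7.55), from 7.39 to 7.68 in B6 controls (median 7.52) and from 7.47 to 7.77 in homozygous mice (median 7.51). The highest value was that of homozygous congenic 3 at 7.77, with the next homozygous mouse at 7.596. Carriers differed from B6 mice by 0.031 log2 (SE 0.033, fold 1.02, interval 0.9748 to 1.07, limma adjusted p = 0.970), by 0.062 (SE 0.051) in batch 1 and by 0.0086 (SE 0.044) in batch 2. Without homozygous congenic 3 the batch 2 difference turned to -0.027.

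**Figure D1:**
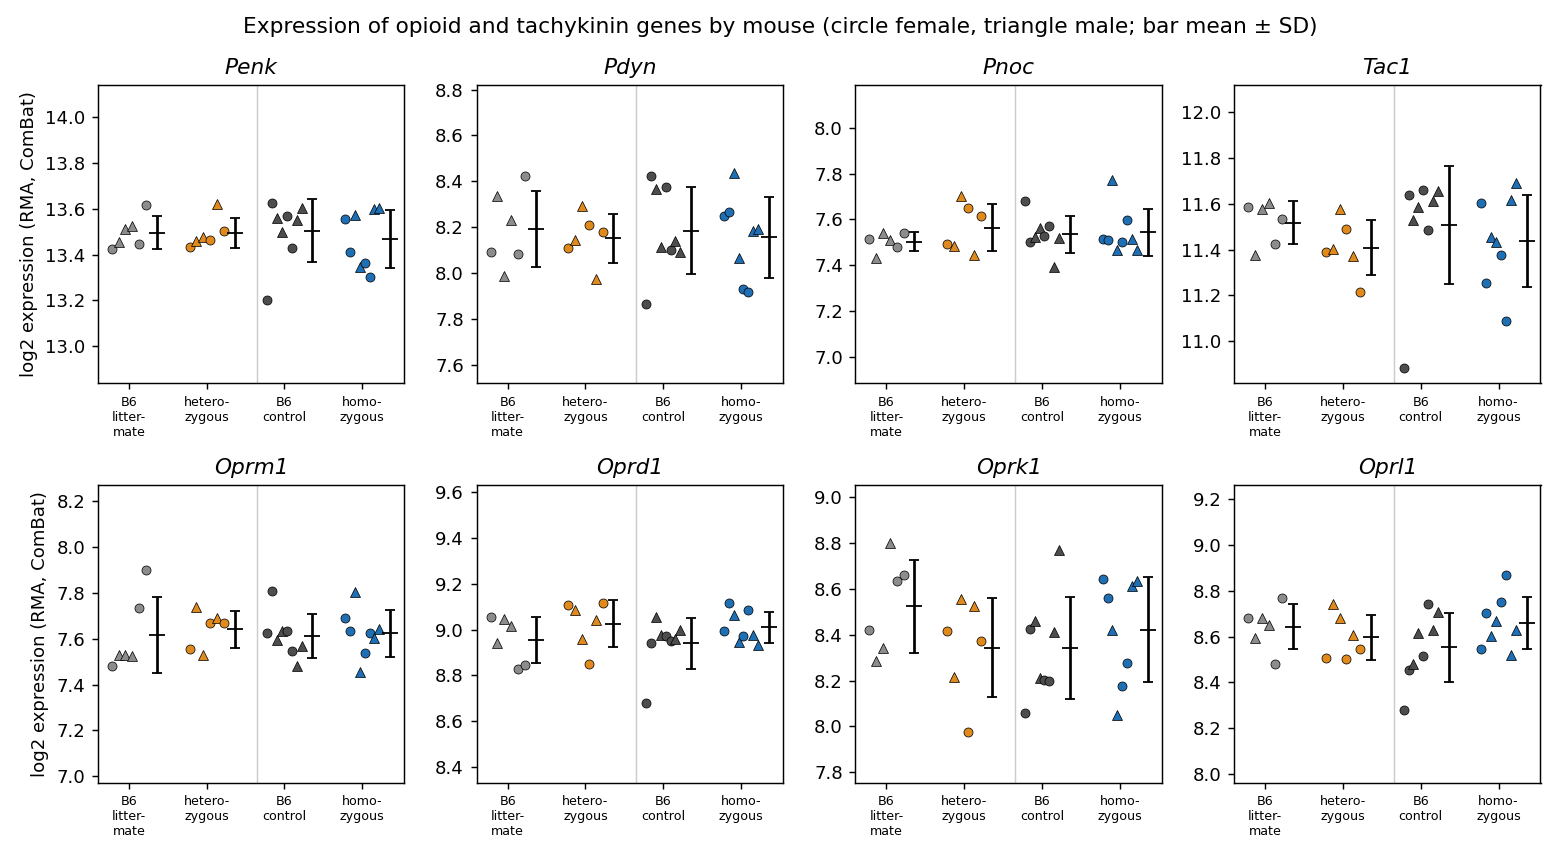
Log2 expression (RMA, ComBat-adjusted) of the 8 genes, 1 panel a gene and 1 point a mouse (circle female, triangle male), in B6 littermates, heterozygous, B6 control and homozygous mice, with the mean and SD of each group as a bar to its right; a grey line parts the batches and each panel has its own range of values. The ranges of carriers and B6 mice overlap in every panel, and the lowest Tac1 point, 10.88, is B6 control 1.

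With all arrays, the delta receptor gene Oprd1 had the most even shift among the receptors. Its values ran from 8.83 to 9.05 in littermates (median 8.98) and from 8.85 to 9.11 in heterozygous mice (median 9.06). They ran from 8.68 to 9.05 in B6 controls (median 8.96) and from 8.93 to 9.11 in homozygous mice (median 8.99). The groups overlapped, yet 5 of 6 heterozygous and 7 of 8 homozygous mice exceeded the mean of the B6 mice they were compared with. The control mean behind the 7 of 8 includes B6 control 1, which lowers it. Homozygous congenic 4, 5 and 7 lay at 8.95, 8.97 and 8.98, near the control median of 8.96. They exceeded the mean of all controls, 8.94, but not the mean of the controls without B6 control 1. The 7 of 8 thus rests on that array. The difference was 0.070 log2 in each batch (SE 0.056 in heterozygous and 0.048 in homozygous mice) and 0.070 over all carriers (SE 0.036, fold 1.0498, interval 0.998 to 1.10), with an unadjusted p of 0.0605. It did not pass after adjustment over all genes (limma adjusted p = 0.932). B6 control 1 held the lowest value, 8.68, and without it the difference was 0.034 (SE 0.043) in homozygous mice and 0.050 (SE 0.031) over all carriers (limma adjusted p = 0.914 and 0.827).

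Oprk1, the kappa receptor gene, had differences of opposite sign in the batches. It ran from 8.29 to 8.80 in littermates (median 8.53), from 7.98 to 8.56 in heterozygous mice (median 8.40), from 8.06 to 8.77 in B6 controls (median 8.31) and from 8.05 to 8.64 in homozygous mice (median 8.49). Heterozygous mice differed from littermates by -0.18 log2 (SE 0.12, fold 0.883, interval 0.746 to 1.04) and homozygous mice from B6 controls by 0.081 (SE 0.10, fold 1.06, interval 0.914 to 1.22). The contrast of the 2 effects was 0.26 (SE 0.16, interval -0.061 to 0.58) and did not pass (unadjusted p = 0.108, limma adjusted p = 0.996). Over all carriers the difference was -0.031 (SE 0.080, limma adjusted p = 0.991), with 7 of 14 carriers above and 7 of 14 below the B6 mean of their batch. B6 control 1 held the lowest control value, 8.06, and without it the difference was 0.046 (SE 0.10) in homozygous mice and -0.055 (SE 0.079) over all carriers (limma adjusted p = 0.961 and 0.930).

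Oprl1, the nociceptin receptor gene, was likewise lower in heterozygous and higher in homozygous mice than in their B6 groups. It ran from 8.48 to 8.77 in littermates (median 8.67), from 8.50 to 8.74 in heterozygous mice (median 8.58), from 8.28 to 8.74 in B6 controls (median 8.57) and from 8.52 to 8.87 in homozygous mice (median 8.65). The difference was -0.046 (SE 0.068) in heterozygous mice and 0.11 (SE 0.059, fold 1.08, interval 0.991 to 1.17, unadjusted p = 0.0778) in homozygous mice, where 6 of 8 lay above the B6 control mean. Neither this nor the contrast of the 2 effects, 0.15 (SE 0.090, unadjusted p = 0.0988), passed in limma (adjusted p = 0.809 and 0.996). B6 control 1 held the lowest Oprl1 value, 8.28, and without it the homozygous difference was 0.070 (SE 0.055, limma adjusted p = 0.883). With the hepatocyte mean as a covariate it was 0.14 (SE 0.043, unadjusted p = 0.00357), which did not pass after adjustment over all genes in limma (adjusted p = 0.1497).

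Oprm1, the mu receptor gene, ran from 7.48 to 7.90 in littermates (median 7.53), from 7.53 to 7.74 in heterozygous mice (median 7.67), from 7.48 to 7.81 in B6 controls (median 7.61) and from 7.46 to 7.80 in homozygous mice (median 7.63). B6 littermate 6, at 7.90, and B6 littermate 5, at 7.73, lay above the other littermates, which sat between 7.48 and 7.53. The difference was 0.025 (SE 0.063) in heterozygous mice, 0.013 (SE 0.055) in homozygous mice and 0.018 (SE 0.041, fold 1.01, interval 0.956 to 1.07) over all carriers (limma adjusted p = 0.999899, 0.977 and 0.990).

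None of the 8 genes passed limma's test in any of the genotype comparisons, and with all arrays none had an unadjusted p under 0.05 there. Over all 19946 genes, 0% were called between heterozygous mice and littermates (735 genes, 3.68%, at unadjusted p under 0.05). Between homozygous mice and B6 controls 0.00501% were called (6.24% unadjusted), between carriers and B6 mice 0.0201% (5.3% unadjusted), and in the contrast of the 2 effects 0% (5.07% unadjusted). Counts of 0 members thus stand beside backgrounds close to 0. The median difference of the 8 genes between carriers and B6 mice was -0.0018 log2, beside 0.0091 over all genes, and 4 of the 8 were higher. The authors' deposited table, whose test set all 14 congenic against all 14 B6 arrays, gave its lowest p among the members for Oprd1 (p = 0.0562, q = 0.661) and the next for Tac1 (p = 0.229, q = 0.818). The interval for carriers against B6 mice reached at most from 0.862 (Tac1) to 1.10 (Oprd1, Oprk1 and Oprl1) in fold, and for heterozygous mice it was as wide as 0.746 to 1.04 (Oprk1). The number of arrays limits the precision, and a p above the threshold does not show that the levels were alike.

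**Figure D2:**
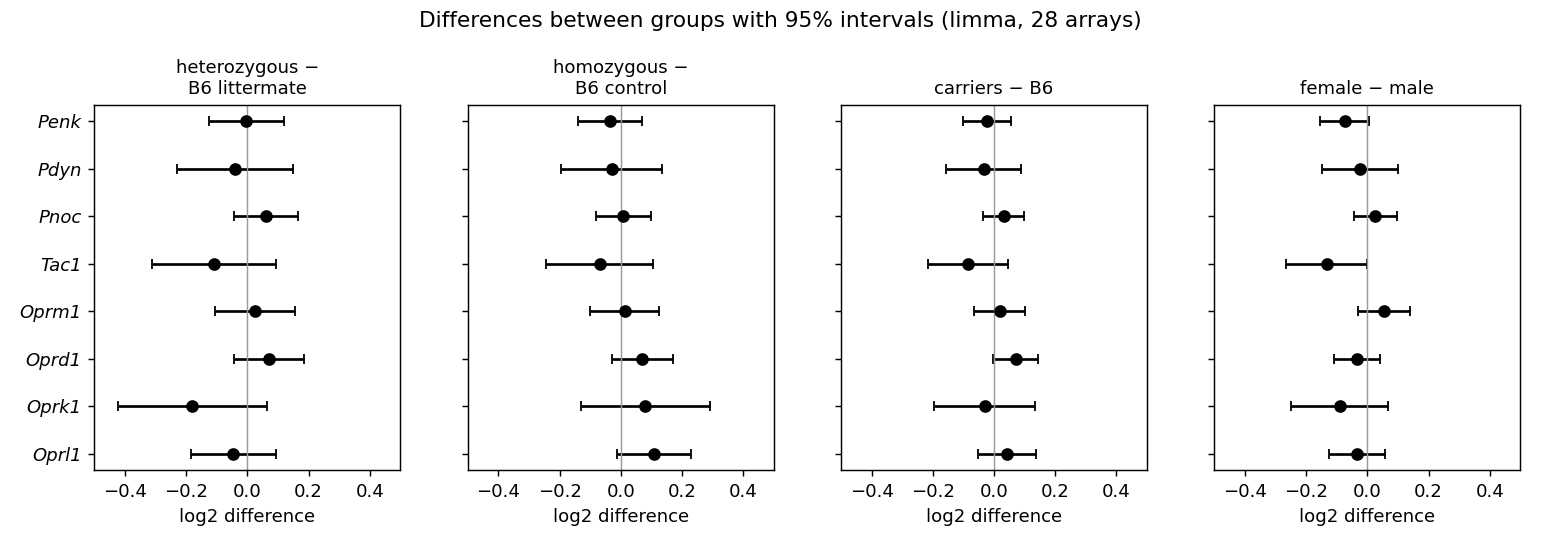
Differences in log2 expression of the 8 genes for heterozygous mice against littermates, homozygous mice against B6 controls, carriers against B6 mice and females against males, as points with 95% intervals from limma over 28 arrays; the grey line marks no difference. Every genotype interval includes 0, the widest being those of Oprk1, and of the sex intervals only that of Tac1 ends below 0 (-0.00037).

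The genes differed in how much the mice of a group varied. The pooled SD within groups was 0.219 log2 for Oprk1, 0.180 for Tac1 and 0.170 for Pdyn, larger than for 94.9%, 92.1% and 90.6% of all genes. Oprl1 had 0.121, Oprm1 0.111, Penk 0.104, Oprd1 0.0966 and Pnoc 0.0872, beside a median of 0.103 over all genes. With B6 control 1 left out, the SD was 0.131 for Tac1, 0.158 for Pdyn and 0.217 for Oprk1, with a median over all genes of 0.0942. The lowest SD was that of Pnoc over all arrays and that of Oprd1 without B6 control 1 (0.0806, beside 0.0834 for Pnoc and 0.0868 for Penk).

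Between the sexes Tac1 differed most. It ran from 10.88 to 11.66 in the 14 females (mean 11.40 ± 0.22, SD) and from 11.37 to 11.69 in the 14 males (mean 11.53 ± 0.11), and the sexes overlapped. Females differed from males by -0.13 log2 (SE 0.064, fold 0.912, interval 0.832 to 0.9997), with an unadjusted p of 0.0494 and a limma adjusted p of 0.680. With all arrays Tac1 was thus the 1 member with an unadjusted p under 0.05, against 7.34% of all genes, and none of the 8 was called, against 0.0551%. Penk differed by -0.074 (SE 0.039, limma adjusted p = 0.712), and the other members by -0.091 (Oprk1) to 0.055 (Oprm1). When B6 control 1, a female, was left out, the Tac1 difference was -0.085 (SE 0.048) and no longer had an unadjusted p under 0.05. Its limma p was then 0.0881 unadjusted and 0.756 adjusted. Without that array Penk differed by -0.052 (SE 0.034), and the Pdyn difference turned from -0.024 to 0.0022.

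Markers of spiny neurons moved in the same direction between the sexes. All 14 shared spiny neuron genes were lower in females, 10 of them at an unadjusted p under 0.05 and none called, with a median of -0.13 log2 beside 0.0036 over all genes. Of the direct-pathway genes 6 of 7 were lower (median -0.12) and of the indirect-pathway genes 6 of 7 (median -0.088), while 7 of 8 cortical excitatory neuron genes were higher (median 0.10). Lower values were not confined to spiny neuron lists. They held for 7 of 7 oligodendrocyte genes (median -0.079), 9 of 10 GABAergic interneuron genes (-0.048) and 6 of 7 astrocyte genes (-0.015). Without B6 control 1 these counts were 5 of 7 (-0.039), 8 of 10 (-0.037) and 3 of 7 (0.0035). Without B6 control 1 the shared spiny neuron list had 13 of 14 lower (median -0.089, 9 at an unadjusted p under 0.05), the direct-pathway median was -0.11, the indirect-pathway median -0.057 and the cortical median 0.12. With the mean of the shared spiny neuron genes as a covariate the sex difference was 0.026 for Tac1 (SE 0.038), 0.018 for Penk (SE 0.025), 0.087 for Pdyn and 0.022 for Oprk1, each of the opposite sign to the value without it.

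Genes that make, cut and sense these peptides gave no call in any comparison. The 8 pathway lists held 81 genes, of which 2 (2.47%) had an unadjusted p under 0.05 between heterozygous mice and littermates, 5 (6.17%) between homozygous mice and B6 controls and 4 (4.94%) between carriers and B6 mice. The background shares at that threshold were 3.68%, 6.24% and 5.3%. When B6 control 1 was left out, the counts were 4 for heterozygous mice, 9 for homozygous mice and 6 for carriers, of which all but 1 in carriers were lower, beside 5.40%, 6.23% and 6.49% of all genes. In the contrast of the 2 effects 1 gene (1.23%) had such a p, beside 5.07% of all genes (4 genes without B6 control 1, beside 5.25%), and between females and males 11 (13.6%), beside 7.34%, and none was called in either. The values named below are the smallest p-values of each list and none passed limma's adjusted threshold.

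Of 11 genes of peptide processing, 8 were lower and 3 higher in carriers. In carriers Pcsk1n, which encodes an inhibitor of a prohormone convertase, differed by -0.060 (SE 0.054) and Pam, which amidates peptides such as substance P, by 0.029 (SE 0.029). In heterozygous mice the granule protein gene Chga differed by -0.10 and the carboxypeptidase gene Cpd by -0.081, and in homozygous mice Pam by 0.060 and Vgf, which encodes a granule peptide precursor, by -0.084. Of 8 genes of peptide breakdown 7 were lower in carriers, led by the aminopeptidase genes Npepps (-0.039) and Rnpep (-0.037). Ece2, an endothelin-converting enzyme that also cleaves opioid peptides, differed by -0.14 (SE 0.050, unadjusted p = 0.00816, limma adjusted p = 0.999899) in heterozygous mice and by 0.080 (SE 0.044) in homozygous mice. The dipeptidyl peptidase gene Dpp3 differed by 0.028 in homozygous mice and Npepps by -0.11 in heterozygous mice. Without B6 control 1 the carrier differences were -0.098 for Pcsk1n, -0.071 for Npepps, -0.057 for Rnpep and 0.019 for Pam. In homozygous mice they were then -0.13 for Vgf, 0.043 for Pam, 0.066 for Ece2 and 0.027 for Dpp3. Of these, Pcsk1n, Npepps and Vgf had limma unadjusted p = 0.0247, 0.0221 and 0.0300 (adjusted p = 0.721, 0.720 and 0.770).

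The 5 other tachykinin and neurokinin receptor genes had 3 lower and 2 higher in carriers. Tac4, which encodes hemokinin, differed by 0.087 (SE 0.043, unadjusted p = 0.0501) in carriers, by 0.070 in heterozygous and by 0.0999 in homozygous mice. The receptor genes Tacr3 and Tacr1 differed by -0.066 in carriers and by -0.11 in homozygous mice, respectively, and Tac2, the neurokinin B precursor, by -0.18 (SE 0.14) in heterozygous mice. Of 13 other neuropeptide genes 6 were higher and 7 lower in carriers. Nts, the neurotensin precursor, differed by -0.17 (SE 0.070, unadjusted p = 0.0219) in heterozygous mice and by -0.077 in carriers, and Hcrt, the orexin precursor, by -0.083 and -0.057. Crh, the corticotropin-releasing hormone gene, differed by 0.086 and the somatostatin gene Sst by -0.10 in homozygous mice.

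On the receptor side, 12 of 17 genes of Gi/o transduction were higher in carriers, but 6 of 17 without B6 control 1. Rgs17, a regulator that speeds the turn-off of inhibitory G proteins, differed by 0.14 (SE 0.068, unadjusted p = 0.0480) in homozygous mice and by 0.075 in carriers, and Gnb1, a G protein beta subunit gene, by 0.067 and 0.041. With B6 control 1 left out, the homozygous values were 0.074 for Rgs17 (unadjusted p = 0.159) and 0.034 for Gnb1. Among heterozygous mice Rgs7 differed by -0.11 and Rgs8 by 0.076. With all arrays, 10 of 10 effector genes were higher in homozygous mice (median 0.061, beside 0.016 over all genes), with none at an unadjusted p under 0.05. Without B6 control 1 it was 7 of 10, with a median of 0.011 beside 0.0098 over all genes, and in heterozygous mice 5 were higher and 5 lower (median 0.0044). The calcium channel genes Cacna1b (0.061, and 0.011 without B6 control 1) and Cacna1a (0.064 and 0.0066) had the smallest p-values in homozygous mice, while in heterozygous mice the GIRK potassium channel genes Kcnj5 (-0.13) and Kcnj3 (-0.084) did. In carriers Kcnj5 differed by -0.054 and Cacna1a by 0.053. The 6 desensitisation genes were likewise all higher in homozygous mice with all arrays (median 0.055), but 4 of 6 without B6 control 1 (median 0.036), and in heterozygous mice 2 were higher and 4 lower (median -0.016). The receptor kinase genes Grk5 and Grk3 differed by 0.096 and 0.095 in homozygous mice, by 0.051 and 0.048 without B6 control 1, and in carriers Grk5 differed by 0.086 (SE 0.043) and Grk6 by 0.051. In heterozygous mice Grk5 differed by 0.073 and Grk3 by -0.075.

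Transcription factors that act on opioid peptide genes gave no call either. Of 11 such genes, 9 were lower in carriers and 9 in homozygous mice, 4 of them at an unadjusted p under 0.05 in each, with a median of -0.070 in carriers and -0.11 in homozygous mice, beside 0.0091 and 0.016 over all genes. The share of all genes at that threshold was 5.3% in carriers and 6.24% in homozygous mice. In heterozygous mice 8 of 11 were lower, 0 at an unadjusted p under 0.05 in limma beside 3.68% of all genes. Their median was -0.026 beside 0.0024. The lower values at that threshold in homozygous mice thus lie in the batch where genotype cannot be told apart from age and breeding. With B6 control 1 left out, 10 of 11 were lower in carriers (3 at an unadjusted p under 0.05, median -0.063) and 9 of 11 in homozygous mice (5, median -0.10). The shares of all genes were then 6.49% in carriers and 6.23% in homozygous mice. Fos, an immediate early gene and AP-1 subunit, stood at 7.44 ± 0.14 (SD, n = 8) in B6 controls and 7.16 ± 0.16 (n = 8) in homozygous mice, and in batch 1 at 7.30 ± 0.19 (n = 6) for littermates against 7.24 ± 0.25 (n = 6) for heterozygous mice. Its difference was -0.27 (SE 0.084, unadjusted p = 0.00291, limma adjusted p = 0.426) in homozygous mice and -0.19 (SE 0.065, limma adjusted p = 0.836) in carriers. Crem, which encodes activators and repressors that bind CRE sites, differed by -0.11 (SE 0.044) in homozygous mice, -0.084 in heterozygous mice and -0.097 (SE 0.033, limma adjusted p = 0.836) in carriers, and Junb by -0.10 in heterozygous mice. When B6 control 1 was left out, the homozygous difference was -0.26 for Fos (SE 0.087, limma adjusted p = 0.550) and -0.097 for Crem (SE 0.045, limma adjusted p = 0.777).

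Among mice of the same group and sex, several of the genes rose and fell together, for the most part in batch 2. Correlations were computed on each array's deviation from its group and sex means over 28 arrays, with 100000 permutations and adjustment over the 28 pairs of members. Of these, 6 pairs passed, all positive, and 4 of them joined Penk to another member. Penk and Tac1 gave r = 0.73 (rho = 0.60, permutation p = 6e-05, adjusted p = 0.00168). Within batch 2 their r was 0.88 (16 arrays) and within batch 1 -0.041 (12 arrays), so the relation held in batch 2 and not in batch 1. It was 0.56 both without B6 control 1 and without the 2 arrays farthest from the median of Penk, and still passed.

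Penk and Oprk1 gave r = 0.63 over all arrays (rho = 0.61, permutation p = 0.00033, adjusted p = 0.00308). In batch 1 alone their r was 0.44 and did not pass (permutation adjusted p = 0.796), and in batch 2 alone it was 0.72 (0.0171). Penk and Oprm1 gave 0.54 (rho = 0.57, permutation p = 0.00293, adjusted p = 0.0205), with 0.65 in batch 1 and 0.54 in batch 2, neither of which passed alone (permutation adjusted p = 0.663 and 0.128). Over both batches the 2 pairs still passed without the 2 farthest arrays (r = 0.62 and 0.57). Penk and Pdyn gave 0.62 (rho = 0.53, permutation p = 0.0003, adjusted p = 0.00308), with 0.12 in batch 1 and 0.78 in batch 2. Without the 2 farthest arrays the last pair had r = 0.47 and no longer passed (permutation adjusted p = 0.109), so its call rests on those arrays.

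Pdyn also correlated with Tac1 (r = 0.48, rho = 0.36, permutation p = 0.00806, adjusted p = 0.0451) and with Oprm1 (r = 0.48, rho = 0.40, permutation p = 0.0101, adjusted p = 0.0470). Pdyn and Tac1 gave 0.079 in batch 1 and 0.59 in batch 2, and without B6 control 1 they gave 0.30 and did not pass (permutation adjusted p = 0.336). Pdyn and Oprm1 gave 0.25 in batch 1 and 0.65 in batch 2. Without the 2 farthest arrays neither Pdyn pair passed (r = 0.40 and 0.43, permutation adjusted p = 0.205 and 0.162). In batch 1 alone none of the 28 pairs passed, where the lowest unadjusted permutation p was 0.0237, and in batch 2 alone 4 passed. The difference between batches was not tested.

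**Figure D3:**
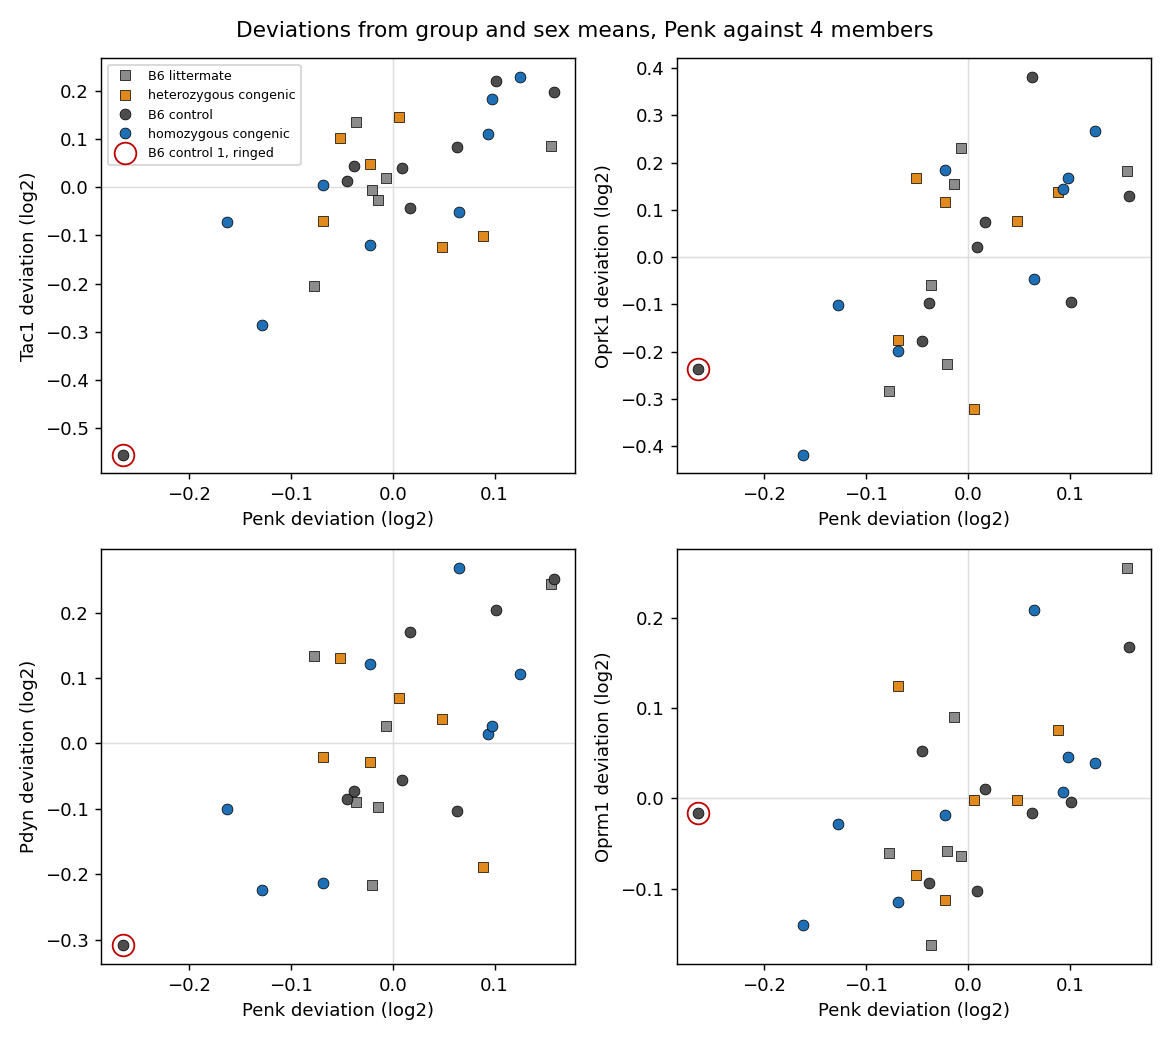
Deviation of Tac1, Oprk1, Pdyn and Oprm1 from group and sex means (log2, vertical) against that of Penk (log2, horizontal), 1 point a mouse, squares for batch 1 and circles for batch 2, with B6 control 1 ringed. B6 control 1 has the lowest Penk, Tac1 and Pdyn deviations, and the Penk and Tac1 points of batch 1 show no common trend (r = -0.041).

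Without B6 control 1, pairs with opposite movement appeared in batch 2. Over its other 15 arrays, an alternative chosen after seeing the data, 9 pairs passed, 5 positive and 4 negative. The negative pairs were Penk and Oprl1 (r = -0.73), Pdyn and Oprl1 (-0.81), Tac1 and Oprl1 (-0.66) and Tac1 and Oprd1 (-0.66). Over all 28 arrays the same pairs had r = -0.027, -0.13, 0.12 and 0.16, and none passed. In batch 1 alone they had r = 0.34, 0.32, 0.39 and -0.21, so the Oprl1 pairs had the opposite sign there, and none passed. Over the 27 arrays of both batches without B6 control 1 they had r = -0.43, -0.42, -0.36 and -0.42. None of these passed either.

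Penk, Tac1, Pdyn and Oprk1 moved with the level of spiny neuron markers. Of 24 relations of the 8 genes with the means of 7 direct-pathway, 7 indirect-pathway and 23 hepatocyte genes, 8 passed, 7 of them positive. With the direct-pathway mean, Tac1 gave r = 0.80 (rho = 0.64), Penk 0.78 (rho = 0.64), Pdyn 0.55 (rho = 0.37) and Oprk1 0.53 (rho = 0.50), with permutation adjusted p = 8e-05, 8e-05, 0.00716 and 0.0112. Penk, a gene of the indirect pathway, gave 0.60 (rho = 0.64) with the indirect-pathway mean, Pdyn 0.67 (rho = 0.68) and Tac1 0.51 (rho = 0.47), with permutation adjusted p = 0.00379, 0.00096 and 0.0131. Without the 2 farthest arrays the direct-pathway values were 0.61, 0.62, 0.49 and 0.51 and still passed, while Tac1 with the indirect-pathway mean had 0.42 and did not (permutation adjusted p = 0.0758).

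Of these 7 positive relations 6 passed in batch 2 alone. There the direct-pathway r was 0.89 for Tac1, 0.95 for Penk, 0.74 for Pdyn and 0.73 for Oprk1, against 0.067, -0.58, -0.42 and -0.19 in batch 1, where none of the 24 relations passed. With the indirect-pathway mean, batch 2 gave 0.76 for Penk, 0.78 for Pdyn and 0.54 for Tac1, the last of which did not pass (permutation adjusted p = 0.0612), and batch 1 gave -0.081, 0.36 and 0.29. When B6 control 1 was left out, the direct-pathway r of Pdyn was 0.40 over the remaining arrays and did not pass (permutation adjusted p = 0.083). The spiny neuron means themselves varied less in batch 1: the direct-pathway mean ran from 9.13 to 9.33 there and from 8.86 to 9.37 in batch 2. Whether this range had a part in the lower r of batch 1 was not tested, nor was the difference in r between batches.

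**Figure D4:**
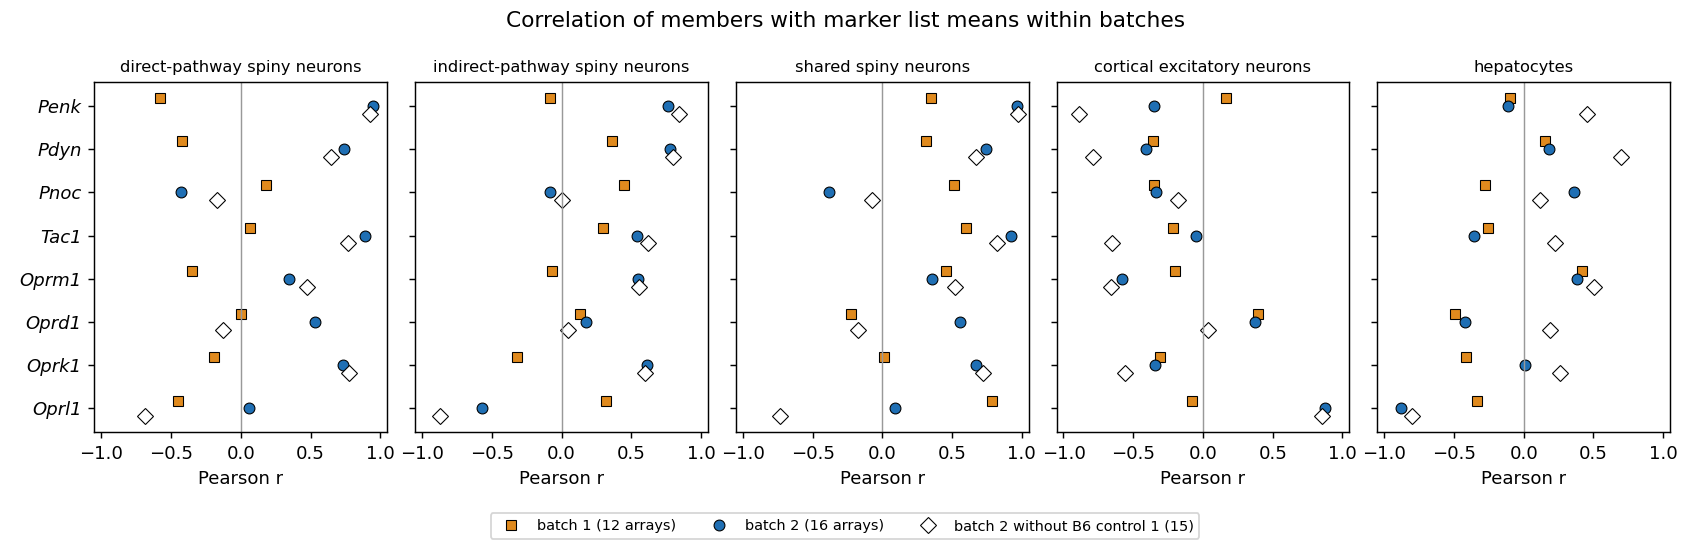
Pearson r of each of the 8 genes with the mean of 5 marker lists, on deviations from group and sex means, in batch 1 (orange squares, 12 arrays), batch 2 (blue circles, 16 arrays) and batch 2 without B6 control 1 (open diamonds, 15 arrays). Penk reaches 0.95 with the direct-pathway mean in batch 2 and -0.58 in batch 1, and Oprl1 reaches 0.88 with the cortical mean in batch 2 and -0.081 in batch 1.

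For Penk and Tac1 the relations with shared spiny neuron genes, a list added after seeing the data, were closer still over all arrays. For Pdyn and Oprk1 they were no closer than their highest r with the direct-pathway or indirect-pathway mean. Among 16 relations with this list and a cortical one, Penk gave r = 0.89 (rho = 0.82, permutation adjusted p = 8e-05), with 0.35 in batch 1, 0.97 in batch 2 and 0.97 in batch 2 without B6 control 1. Tac1 gave 0.88 (rho = 0.75, permutation adjusted p = 8e-05), with 0.60, 0.92 and 0.82 in the same order. Pdyn gave 0.65 (rho = 0.58, permutation adjusted p = 0.00032) and Oprk1 0.52 (rho = 0.51, permutation adjusted p = 0.0107), with 0.32 and 0.013 in batch 1 and 0.75 and 0.67 in batch 2. The unadjusted p of 1e-05 behind the Penk and Tac1 values is the smallest that 100000 permutations can give.

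Oprl1 moved with other markers. It fell with the hepatocyte mean (r = -0.75, rho = -0.70, permutation adjusted p = 8e-05), with r = -0.88 in batch 2, -0.80 there without B6 control 1 and -0.33 in batch 1, where the hepatocyte mean spanned only 8.07 to 8.23. It rose with the mean of 8 cortical excitatory neuron genes (r = 0.62, rho = 0.62, permutation adjusted p = 0.00196), with 0.88 in batch 2 and -0.081 in batch 1. In batch 2 the hepatocyte mean tended to be lower where the cortical mean was higher. B6 control 3 had 10.04 and 9.46, B6 control 6 had 6.91 and 9.93, and homozygous congenic 4, against this trend, 8.61 and 10.00. Whether the 2 relations of Oprl1 are separate was not tested. The relation of Oprl1 with the shared spiny neuron mean differed in sign, with r = 0.79 in batch 1 (permutation adjusted p = 0.0368), 0.090 in batch 2 and -0.73 in batch 2 without B6 control 1. Pdyn rose with the hepatocyte mean once B6 control 1 was left out (r = 0.57 over 27 arrays, permutation adjusted p = 0.0062), against 0.15 over all 28. In batch 2 without that array its r was 0.70 (permutation adjusted p = 0.0110).

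Over the 16 arrays of batch 2, Penk and Tac1 did not pass with the cortical mean (r = -0.35 and -0.052, permutation adjusted p = 0.232 and 0.854). B6 control 1 had the lowest cortical mean of the batch (9.36) together with the lowest Penk and Tac1. Without it, an alternative chosen after seeing the data, r was -0.89 for Penk and -0.65 for Tac1 (permutation adjusted p = 0.00032 and 0.0137). Homozygous congenic 6 had the highest cortical mean of the batch, 10.10, with the lowest Penk apart from B6 control 1 (13.30), the lowest Tac1 apart from it (11.09) and the highest Oprl1 (8.87). Homozygous congenic 4 (cortical mean 10.00), homozygous congenic 5 (9.94), B6 control 6 (9.93) and homozygous congenic 2 (9.93) came next, with Penk at 13.34, 13.36, 13.43 and 13.41. The 10 arrays with lower cortical means, B6 control 1 left out, had Penk from 13.50 to 13.63. Of the 5 highest arrays 4 were homozygous mice. No fit had the cortical mean as a covariate. The part of cortical RNA in the Tac1, Penk and Oprl1 differences between the groups was not tested. That of liver RNA was not tested beyond the fits with the hepatocyte mean as a covariate. With the shared spiny neuron mean as a covariate, Tac1 differed by -0.10 (SE 0.033, unadjusted p = 0.00411, limma adjusted p = 0.720) between carriers and B6 mice, by -0.13 (SE 0.051) in heterozygous and by -0.080 (SE 0.044) in homozygous mice.

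**Figure D5:**
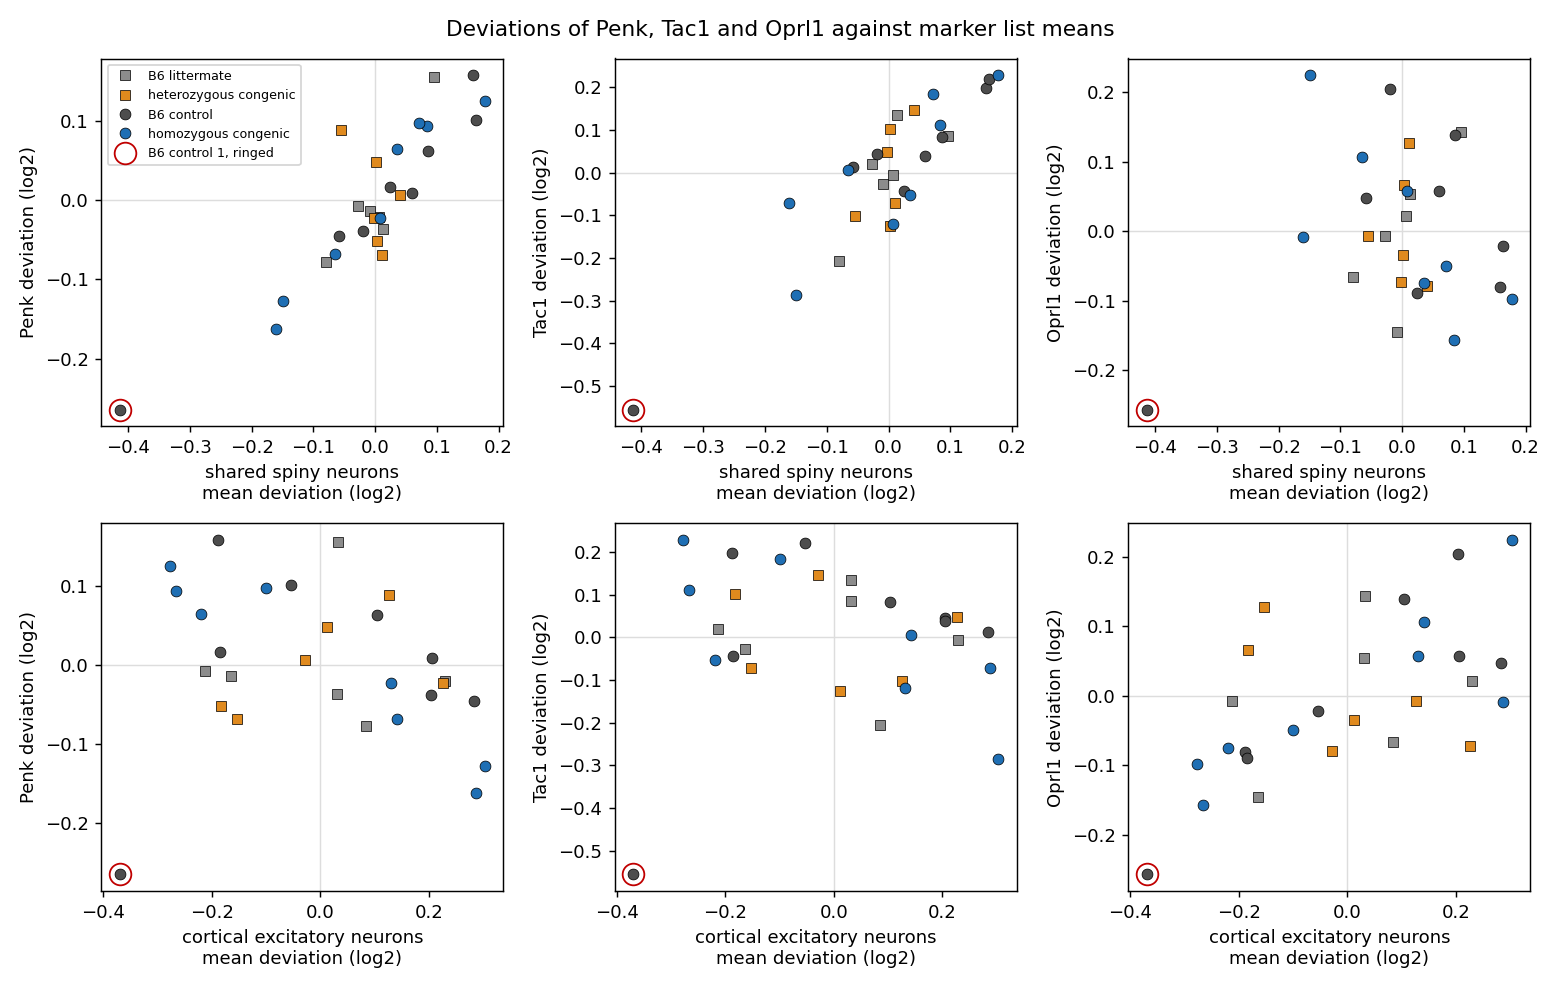
Deviation of Penk, Tac1 and Oprl1 from group and sex means (log2, vertical) against the deviation of the shared spiny neuron mean (upper row) and the cortical excitatory neuron mean (lower row), 1 point a mouse, squares for batch 1 and circles for batch 2, with B6 control 1 ringed. Penk follows the spiny neuron mean over all arrays (r = 0.89), and Oprl1 rises with the cortical mean in batch 2 (r = 0.88).

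Single genes also followed individual members. For each member, all genes were ranked by the smaller of their correlations within batch 1 (12 arrays) and batch 2 (16 arrays), and the 3 highest are named with these 2 values as a description. For Penk they were Rasgef1a (0.81 and 0.85), Agap2 (0.91 and 0.79) and St8sia3 (0.76 and 0.87). For Tac1 they were Tomm70a (0.88 and 0.90), Foxp1 (0.82 and 0.91), itself a gene of the shared spiny neuron list, and Rab30 (0.90 and 0.82). For Pdyn they were Tacr1, the substance P receptor gene (0.81 and 0.78), Bcl9l (0.79 and 0.78) and Kirrel3 (0.81 and 0.77), and for Pnoc Dennd2c (0.73 and 0.73), Sprr2e (0.70 and 0.83) and Olfr1105 (0.73 and 0.69).

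Among the receptors, Oprk1 was followed by Synpr (0.76 and 0.82), Klhl13 (0.71 and 0.71) and Nr4a2 (0.73 and 0.71), and Oprm1 by Naa38 (0.80 and 0.77), Kctd12 (0.72 and 0.75) and Cldn19 (0.71 and 0.70). Oprl1 was followed by Rnf24 (0.77 and 0.83), Tmod2 (0.76 and 0.78) and Leprotl1 (0.84 and 0.75). Oprd1 was followed by Hip1r (0.88 and 0.87), Ldb1 (0.87 and 0.79) and Rabl6 (0.79 and 0.79). In batch 2 without B6 control 1 the values of Ldb1 and Rabl6 were 0.098 and 0.24, so their place rested on that array, while Hip1r had 0.65. Leprotl1, named for Oprl1, had 0.56 and Rab30, named for Tac1, 0.62. Tac1's Tomm70a had 0.87, Oprk1's Synpr 0.81 and Penk's Rasgef1a 0.79 there. When the ranking was made without B6 control 1, Leprotl1 had rank 80 and Rab30 rank 54. Also outside the 3 highest were Kirrel3 (rank 13), Hip1r (9), Agap2 (8), Klhl13 (6), Tacr1 (5) and Foxp1 (4). Apart from these and Ldb1 and Rabl6, the named genes stayed among the 3 highest. All the named genes were picked as the highest of 19946, and no test was made of their likeness.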

How the data were processed

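Striatal RNA of 28 mice was hybridised to Mouse Gene 1.0 ST arrays. The authors made the log2 values with RMA, and the submitters' processing notes name Affymetrix Expression Console without a version. Per the deposited notes, probes over coding SNPs between the strains from 84 to 96 Mb of build 37 (145 listed) were masked and ComBat then removed the effect of batch, so batch levels were brought together before any test here. Both deposited tables hold identical values (largest difference 0). Per those notes the deposited p-values come from a t-test by the authors between B6 and congenic arrays, with q-values added by QVALUE.

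Values were used as deposited, and 0 sample columns were unmatched. Of 35556 clusters 21797 had 1 symbol in the platform annotation, 1613 several and 12146 none. Taking for each gene its single-symbol cluster of highest mean left 19946 genes. Groups came from the sample titles. Tests used limma 3.58.1 in R 4.3.3 (lmFit and eBayes, 2-sided, Benjamini-Hochberg over all genes, threshold 0.05) on a model of 4 group means and sex, and for carriers on batch, genotype and sex. Correlations used NumPy 2.4.6 and SciPy 1.17.1 under Python 3.11.15, with 100000 permutations of residuals from group and sex, adjusted within each family of 28, 24 or 16 relations. The fits were tested on simulated data. The 8 members, the marker and pathway lists and the tests were chosen with earlier results of these data known. Always named were the 8 members, and from each of 8 pathway lists up to 2 genes of smallest p in each genotype comparison, and for each member the 3 genes with the highest smaller within-batch correlation. The alternatives covered the sex term, age, a replicate block, hepatocyte and spiny neuron means as covariates, normalization, clusters averaged per gene, a filter on dim genes, the variance model, single batches, the methods' t-test and each array left out. Replicate numbers were checked as pairs: the correlation of same-numbered arrays ran from -0.065 to 0.17 over 6 pairs of batch 1 (3 above 0.1) and from -0.52 to 0.69 over 8 pairs of batch 2 (6 above 0.1), so the numbers were not taken to pair the mice. Promoter windows came from RefSeq tables of GRCm38.p6, a later build than that of the masked probes. Windows for Penk, Pnoc and Oprk1 were not used here.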

Additional observations from a re-analysis of the deposited data

Results flagged for a closer look

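In 4 of 32 groups of a gene, the lowest or the highest mouse lay farther from its nearest neighbour than Dixon's 95% limit allows for the group's range, where chance gives about 1 in 20 groups. B6 control 1 was the low array for 3 genes. Its Penk value was 13.2027, with the next B6 control at 13.4291, its Tac1 value 10.8844, with the next at 11.4849, and its Oprd1 value 8.67826, with the next at 8.94078. On the same array the hepatocyte mean was the highest of all (11.09) and the shared spiny neuron mean the lowest (10.66), and the part of either in these values was not tested. Homozygous congenic 3 was the high array for Pnoc at 7.77161, with the next homozygous mouse at 7.5961.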

How the results depend on the processing

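Of 1478 alternative fits of a single gene, 1419 kept the direction, 59 reversed it and 0 brought a call, with a lowest limma adjusted p of 0.1497 (Oprl1 in homozygous mice with the hepatocyte covariate). The 1419 include fits that could not change the direction. In heterozygous or homozygous mice, leaving out an array of the other batch leaves the difference as it was. Dropping the sex term in these balanced groups, the variance model and the filter on dim genes do so too. Under quantile normalization the difference was 0.049 for Penk in heterozygous mice, 0.0038 for Penk in carriers, -0.011 for Pnoc and -0.0088 for Oprm1 in homozygous mice, and -0.015 for Oprd1 in the contrast of effects. With age as a covariate Oprm1 turned to -0.031 in homozygous mice and -0.011 in carriers. Carriers differed in Oprl1 by -0.046 in batch 1 alone and in Oprk1 by 0.081 in batch 2 alone. With the spiny neuron covariate the sex difference was 0.018 for Penk, 0.087 for Pdyn, 0.026 for Tac1 and 0.022 for Oprk1. The cause of these turns was not tested. Leaving out each array in turn gave, in heterozygous mice, -0.022 to 0.029 for Penk, -0.086 to 0.010 for Pdyn and -0.0090 to 0.078 for Oprm1, and in homozygous mice -0.075 to 0.0086 for Pdyn, -0.027 to 0.029 for Pnoc and -0.018 to 0.038 for Oprm1. It gave -0.057 to 0.0026 for Oprk1 in carriers and -0.046 to 0.0022 for Pdyn between the sexes. The contrast of effects ran from -0.039 to 0.057 for Pdyn, -0.042 to 0.084 for Tac1, -0.066 to 0.022 for Oprm1 and -0.036 to 0.023 for Oprd1. Without the 2 farthest arrays 3 pairs of members passed in place of 6. In batch 1 alone (12 arrays) 0 of 28 pairs, 0 of 24 relations with the direct-pathway, indirect-pathway and hepatocyte means and 1 of 16 with the lists added after seeing the data passed (Oprl1 with the shared spiny neuron mean, r = 0.79, permutation adjusted p = 0.0368), with r = -0.041 for Penk and Tac1, -0.58 and -0.081 for Penk with the direct-pathway and indirect-pathway means, -0.42 for Pdyn and -0.19 for Oprk1 with the direct-pathway mean, and -0.081 for Oprl1 with the cortical mean. Calls over all genes between carriers and B6 mice, 4 in the reported fit, were 11 with the hepatocyte covariate, 7 without heterozygous congenic 3, 6 by the methods' t-test (1168 before adjustment), 1 with the replicate block and 0 in batch 1 alone. Those between homozygous mice and B6 controls, 1 in the reported fit, were 14 with the hepatocyte covariate, 3 with the block or with the 9973 brighter genes alone, and 2 with age, with quantile normalization or with clusters averaged per gene, and at most 2 with an array left out, and sex calls were 6 in place of 11 with the brighter genes. With the replicate block no member was called, the contrast of effects had 1 call over all genes in place of 0, and the homozygous difference of Oprl1 stayed 0.11 (unadjusted p = 0.0491, limma adjusted p = 0.736). Of the same-numbered arrays 2 of 6 in batch 1 and 3 of 8 in batch 2 correlated best with their own number. Pnoc and Oprm1 were not among the brighter genes and have no value there. Signal over background is not given in the values used, so how near these genes lie to background was not tested.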
